A study of Mus musculus with 8 samples.

Results

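The cytosolic heat shock chaperones described here are 9 genes for chaperones and co-chaperones of the cytosol, Hspa1a, Hspa1b, Hspa8, Hsph1, Dnaja1, Dnajb1, Hsp90aa1, Hsp90ab1 and Bag3, together with Hsf1, the transcription factor that drives most of them in heat shock. They were chosen by symbol, and all 10 were found among the 14012 genes of the count table. RNA was taken from the quadriceps femoris (QF), a thigh muscle, of 4 mice labelled KO (Grpel1 smk -/-) and of 4 labelled Grpel1 flox/flox control, 1 library per animal identifier, and the 2 groups are called knockout and control below. Both groups carry the floxed Grpel1 alleles. In the knockouts a Cre recombinase under the human skeletal actin promoter, active in muscle fibres and switched on by tamoxifen given on 5 days from 5 weeks of age, deletes the gene, while other cells of the muscle keep it. Where it follows body weight, the study's text describes Grpel1 flox/flox littermates as untreated. The figure there shows floxed mice with Cre but no tamoxifen and also floxed mice with tamoxifen but no Cre. Which of these the control mice of these libraries were is not stated. If they were untreated, tamoxifen and the deletion cannot be told apart. The knockouts reached their end point within 5 weeks of induction. GRPEL1 is the nucleotide exchange factor of mitochondrial HSP70, which pulls proteins into the matrix, and the comparison asks how the cytosolic folding machinery of muscle stood when that import was impaired.

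Chaperones of the HSP70 family bind unfolded stretches of protein in cycles of ATP binding and hydrolysis. J-domain proteins such as DNAJA1 and DNAJB1 bring clients and start hydrolysis, and exchange factors such as HSPH1 (HSP110) and BAG3 release ADP and the client. HSP90 takes over many of these clients, among them myosin in muscle, at a later stage of folding. HSF1 is held inactive by HSP70, HSP90 and J-domain proteins, and when unfolded proteins occupy these chaperones it trimerizes and binds heat shock elements, arrays of inverted GAA units, in the promoters of chaperone genes. Hspa1a and Hspa1b are the strongly inducible HSP70 genes, whereas Hspa8 and Hsp90ab1 are made at high level without stress.

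The libraries held 16017565 to 20361144 counts, and 3 counts, the most that a count of 0 allows, stood for 0.119 to 0.242 CPM (counts scaled to library size), so every member was measured well above this limit. The summed CPM of 12 muscle fibre markers was 219099 to 279576 in control muscle and 75855 to 107112 in knockout muscle, so the markers that define the fibre were present at high level in both groups. The count of Grpel1 itself, taken over the whole gene, had a log2 fold change of -0.066 (edgeR adjusted p = 0.49) and does not check the labels. At the protein level the study reports less GRPEL1 in knockout QF, by immunoblot and by immunostaining. The CPM used here divide by library size and by an edgeR factor for composition (TMM), which was 0.747 to 0.844 in control muscle and 1.19 to 1.33 in knockout muscle. With library totals alone the median change of the whole transcriptome moved from 0.065 to 0.73, and calls that were higher in knockout muscle made up 90.7% of all calls in place of 52.7%. Changes of the members relative to that median, and ratios of members within a library, are therefore given beside the fold changes. Another scaling shifts all genes by nearly the same amount, so a change relative to the median stays nearly the same by construction. It places a member among all genes and does not test which scaling is right. In bulk tissue, fewer cells of a type and less RNA per cell cannot be told apart.

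Of the 10 members, 5 were lower in knockout muscle, 0 were higher and 5 did not pass an adjusted p under 0.01 (edgeR, adjusted by Benjamini-Hochberg over all genes). Of all genes tested, 21.1% were called lower and 23.6% higher, 44.7% in either direction. The 5 that fell were the 3 cytosolic HSP70 genes Hspa1a, Hspa1b and Hspa8, the HSP110 gene Hsph1 and the J-domain gene Dnaja1. Both HSP90 genes, Dnajb1, Bag3 and Hsf1 did not pass. The median log2 fold change of the 10 was -0.42, against 0.065 for all genes, with 7 values below 0. The groups did not overlap in 5 of the 10 members, close to the share of 53.4% over all genes. At least 2-fold lower were 3 members, Hspa1a, Hspa1b and Hsph1, and 0 were higher by as much, where 7.69% of all genes were called lower and 9.83% higher by at least this. With library totals alone 2 members were called lower (Hspa1a and Hspa1b) and 5 higher (Hsp90aa1, Hsp90ab1, Dnajb1, Bag3 and Hsf1), against 6.23% and 60.6% of all genes.

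**Figure D1:**
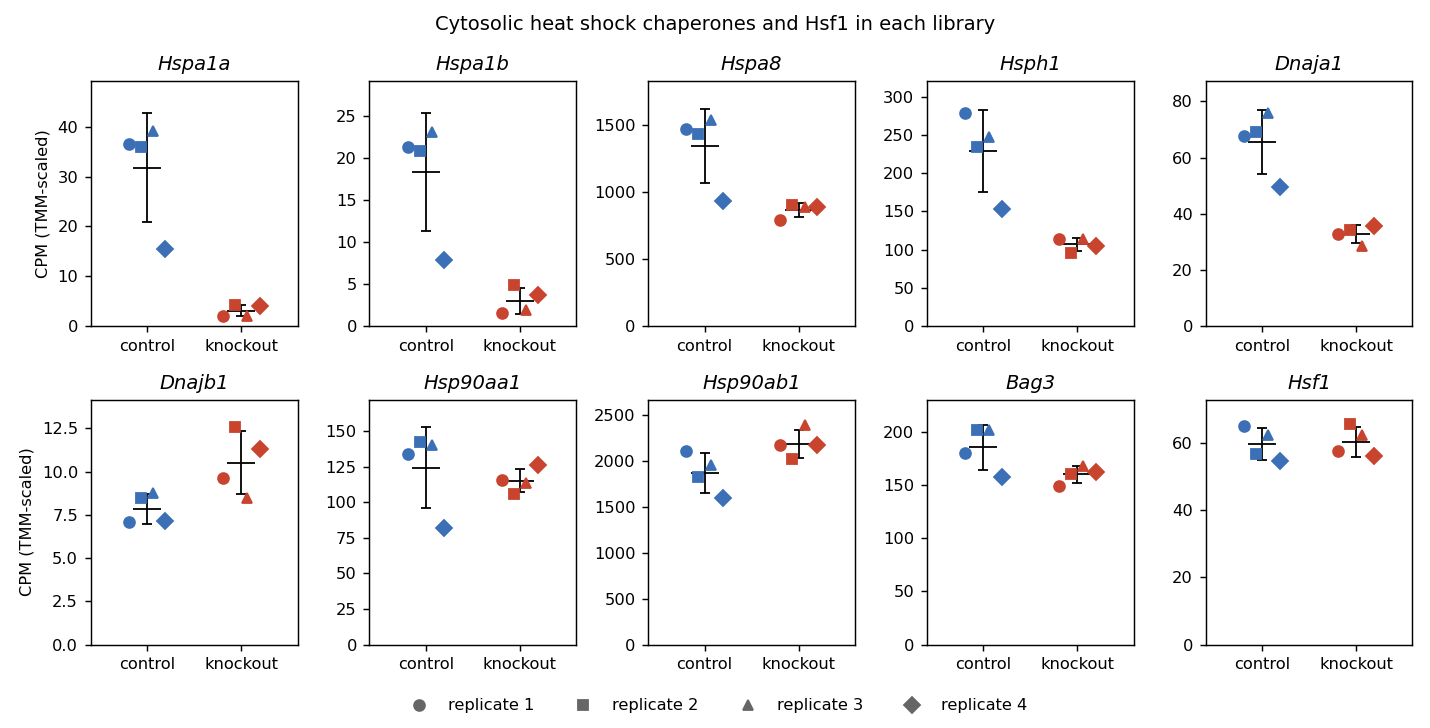
CPM (TMM-scaled) of each of the 10 members in the 4 control (blue) and 4 knockout (red) libraries, with a marker shape for each replicate number and the mean and SD of each group as black bars, on linear axes that start at 0. In Hspa1a, Hspa1b, Hspa8, Hsph1 and Dnaja1 every knockout library lies below every control library, and control replicate 4 (blue diamond) is the lowest control in 9 of the 10 panels.

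The inducible HSP70 genes changed most. Hspa1a (Entrez Gene 193740, chr17:34969359-34972156 of GRCm38, minus strand) had 452, 548, 546 and 246 counts in control replicates 1 to 4, or 36.5, 35.9, 39.1 and 15.5 CPM, and 50, 92, 51 and 100 counts in knockout replicates 1 to 4, or 2.08, 4.21, 2.11 and 3.97 CPM. The lowest control was thus still above the highest knockout. The mean was 31.7 ± 10.9 CPM in control muscle and 3.09 ± 1.16 in knockout muscle (SD, n = 4 each). This is a log2 fold change of -3.36 (standard error 0.34, 95% interval -4.11 to -2.60, edgeR adjusted p = 1.8e-05), or 10.2-fold lower. Hspa1b (Entrez Gene 15511, chr17:34956429-34959238, minus strand), the neighbouring gene for a nearly identical protein, was at 21.3, 20.9, 23.1 and 7.88 CPM in control muscle and at 1.5, 4.85, 1.86 and 3.74 CPM in knockout muscle. These groups did not overlap either, and the log2 fold change was -2.62 (standard error 0.41, interval -3.54 to -1.69, edgeR adjusted p = 3.9e-04), or 6.13-fold lower. An exact permutation test of 4 against 4, whose smallest possible two-sided p is 0.0286, gave that p for both genes. Of the stretches of 75 bases, the read length, along the longest annotated Hspa1a transcript, 52.7% also occur in Hspa1b, and 55.8% of those of Hspa1b occur in Hspa1a. Read pairs that mapped to several places were left out by the authors, so both levels may be understated and the split between the genes is uncertain. The stretches were compared singly and not as pairs, here and for the other members, so the share of pairs lost is not known. In both genes control replicate 4 was at less than any other control, and without it the log2 fold changes were -3.59 and -2.87.

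The promoters of both genes were read from RefSeq windows on GRCm38.p6 that reach from 250 bases before to 50 bases after the annotated start, to show what their start regions share. The 2 windows differ at 4 of 300 bases. They were searched for 2 inverted units, which are GAA, any 2 bases and TTC, or TTC, any 2 bases and GAA, and for 3 units, in which 2 more bases and a further GAA or TTC follow. A run of 2 units reads the same on both strands, and a run of 3 contains overlapping runs of 2. Only exact units were searched, here and for the other members, so runs with a mismatched unit were not counted. Capitals in each sequence mark the matches, and distances are counted from the start. Hspa1a (chr17:34972107-34972406, minus strand) and Hspa1b (chr17:34959189-34959488, minus strand) each hold 1 match of 2 units, at -104.
Hspa1a: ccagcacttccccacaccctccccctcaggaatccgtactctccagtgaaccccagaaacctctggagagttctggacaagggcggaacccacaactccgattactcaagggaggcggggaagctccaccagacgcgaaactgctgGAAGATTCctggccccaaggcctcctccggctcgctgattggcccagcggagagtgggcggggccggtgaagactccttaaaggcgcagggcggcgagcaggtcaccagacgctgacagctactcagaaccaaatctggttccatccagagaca
Hspa1b: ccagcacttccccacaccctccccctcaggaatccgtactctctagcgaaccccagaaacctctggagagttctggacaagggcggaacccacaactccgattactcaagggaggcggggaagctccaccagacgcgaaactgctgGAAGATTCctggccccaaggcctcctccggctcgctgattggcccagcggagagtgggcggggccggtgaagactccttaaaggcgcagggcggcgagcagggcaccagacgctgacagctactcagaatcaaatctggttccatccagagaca

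Such windows were given for 6 of the 10 members, Hspa1a, Hspa1b, Hsph1, Dnaja1, Dnajb1 and Bag3. Of these 6 genes, 5 hold at least 1 match of 2 units, while 15.06% of all 32851 RefSeq promoter windows and 16.97% of the 27025 genes with a window do. An exact array of 3 units was found in Hsph1 alone among them, and in 0.603% of all windows. The first of 2 Hsph1 windows (chr5:149636287-149636586, minus strand) holds matches at -33, 36 and 41, the last 2 of which overlap and form the array of 3 units. The second (chr5:149636266-149636565), from another annotated start, holds the same matches at -54, 15 and 20. Only the first is printed. The first window of Dnaja1 (chr4:40722218-40722517, plus strand) holds 1 match at -124, and its other 2 windows, at later starts, hold none. Bag3 (chr7:128523333-128523632, plus strand) has 1 match at 42, and neither of the 2 Dnajb1 windows has one, the first of which (chr8:83607925-83608224, plus strand) is printed here beside that of Dnaja1. A match describes the letters in a window and does not show that HSF1 was bound there. The 5 genes with a match include 4 that fell and Bag3, which did not pass the test.
Hsph1: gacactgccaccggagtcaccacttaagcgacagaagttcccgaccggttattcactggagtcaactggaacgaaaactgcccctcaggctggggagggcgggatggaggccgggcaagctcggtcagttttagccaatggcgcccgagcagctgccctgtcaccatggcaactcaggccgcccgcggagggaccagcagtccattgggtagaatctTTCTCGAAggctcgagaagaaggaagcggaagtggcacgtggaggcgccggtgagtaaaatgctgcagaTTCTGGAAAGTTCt
Dnaja1: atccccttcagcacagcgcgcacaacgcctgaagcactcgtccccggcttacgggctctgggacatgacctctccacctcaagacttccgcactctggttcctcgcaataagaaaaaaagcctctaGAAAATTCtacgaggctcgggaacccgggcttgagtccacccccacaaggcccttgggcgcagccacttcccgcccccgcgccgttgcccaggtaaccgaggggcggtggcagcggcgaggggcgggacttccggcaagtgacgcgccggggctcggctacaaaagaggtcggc
Dnajb1: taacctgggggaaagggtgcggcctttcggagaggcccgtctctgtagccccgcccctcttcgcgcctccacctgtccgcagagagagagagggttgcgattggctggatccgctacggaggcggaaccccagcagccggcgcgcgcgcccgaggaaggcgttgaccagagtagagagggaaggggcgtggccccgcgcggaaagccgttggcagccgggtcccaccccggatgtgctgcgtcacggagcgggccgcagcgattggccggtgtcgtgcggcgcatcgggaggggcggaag

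Hspa8, the constitutive HSP70 (HSC70) that also takes part in chaperone-mediated autophagy and in clathrin uncoating, fell less. Its levels (Entrez Gene 15481, chr9:40801273-40805199, plus strand) were 1473, 1435, 1542 and 933 CPM in control muscle and 794, 907, 891 and 887 CPM in knockout muscle. The 3 other controls stood well above the knockouts, but control replicate 4 exceeded the highest knockout by little. The log2 fold change was -0.63 (standard error 0.15, interval -0.96 to -0.30, edgeR adjusted p = 0.0044), or 1.55-fold lower. It did not pass an adjusted p under 0.01 when control replicate 1, 2 or 3 (-0.58, -0.60 and -0.56) or knockout replicate 1 or 4 (-0.60 and -0.65) was left out, with edgeR adjusted p of 0.010 to 0.015, and it was -0.77 without control replicate 4 (edgeR adjusted p = 7.5e-05). With library totals alone it was 0.051 (edgeR adjusted p = 0.73), and measured against the median of all genes it was -0.69 with TMM and -0.68 with totals. Of the 75-base stretches of Hspa8, 68.6% occur in other annotated genes, 64.3% in Gm15459, so its level may be understated.

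Hsph1, the HSP110 that exchanges the nucleotide of HSP70 and works with it in taking aggregates apart, was at 279, 235, 247 and 153 CPM in control muscle and at 114, 95.6, 114 and 104 CPM in knockout muscle. The groups did not overlap, and the knockouts lay closer together than the controls. The log2 fold change (Entrez Gene 15505, chr5:149616845-149636315, minus strand) was -1.10 (standard error 0.16, interval -1.45 to -0.74, edgeR adjusted p = 2.2e-04), a mean of 107 ± 8.75 against 229 ± 53.5 CPM (SD, n = 4 each). None of its 75-base stretches occurs in another annotated gene. With library totals alone it was -0.42 and did not pass (edgeR adjusted p = 0.015), and relative to the median of all genes it was -1.16 with TMM and -1.15 with totals.

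The 2 J-domain genes took opposite signs. Dnaja1, a general J-domain partner of HSP70 in the cytosol, was at 67.7, 69.2, 75.9 and 49.3 CPM in control muscle and 32.6, 34.1, 28.5 and 35.7 CPM in knockout muscle. Without overlap, its log2 fold change (Entrez Gene 15502, chr4:40722468-40734965, plus strand) was -1.0 (standard error 0.13, interval -1.29 to -0.71, edgeR adjusted p = 9.5e-05), and with library totals alone it was -0.32 and did not pass (edgeR adjusted p = 0.039), and measured against the median of all genes it was -1.06 with TMM and -1.05 with totals. Dnajb1, the stress-inducible J-domain protein that also holds HSF1 in check together with HSP70, was at 7.11, 8.44, 8.73 and 7.12 CPM in control muscle and 9.63, 12.6, 8.46 and 11.3 CPM in knockout muscle. Here 3 of 4 knockouts lay above every control, and knockout replicate 3 lay among the controls. Its log2 fold change (Entrez Gene 81489, chr8:83608175-83612653, plus strand) of 0.42 (standard error 0.14, interval 0.099 to 0.74) did not pass (edgeR adjusted p = 0.029, exact permutation p = 0.0571) and was 0.35 relative to the median of all genes. Of the 75-base stretches of Dnaja1, 26.2% occur in other genes, and its span overlaps that of Gm6297 on the other strand, which had a mean of 14 counts in control muscle and 25 in knockout muscle, whereas Dnajb1 shares none.

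Neither cytosolic HSP90 gene passed the test. Hsp90ab1 (HSP90 beta), the constitutive form, was at 2109, 1827, 1957 and 1594 CPM in control muscle and at 2171, 2017, 2387 and 2171 CPM in knockout muscle. All but knockout replicate 2 lay above the highest control. Its log2 fold change (Entrez Gene 15516, chr17:45567778-45573261, minus strand) was 0.22 (standard error 0.11, interval -0.016 to 0.46, edgeR adjusted p = 0.098), or 0.16 relative to the median of all genes. Hsp90aa1 (HSP90 alpha), the inducible form that folds myosin heads in muscle with UNC45B, was at 134, 142, 140.1 and 82.0 CPM in control muscle and at 116, 106, 114 and 126 CPM in knockout muscle. The knockouts lay between control replicate 4 and the other controls, so that the groups overlapped through 1 library. Its log2 fold change (Entrez Gene 15519, chr12:110691036-110696395, minus strand) was -0.11 (standard error 0.16, interval -0.46 to 0.24, edgeR adjusted p = 0.56), and -0.27 without control replicate 4 (edgeR adjusted p = 0.013). The intervals leave room for a fall of Hsp90aa1 by 0.46 and a rise of Hsp90ab1 by 0.46. With library totals alone both were called higher, by 0.57 and 0.90.

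Bag3, which hands HSP70 clients to selective autophagy at the Z-disc of muscle, was at 180, 201, 202 and 157 CPM in control muscle and at 149, 160, 168 and 162 CPM in knockout muscle. The groups overlapped through control replicate 4. Its log2 fold change (Entrez Gene 29810, chr7:128523583-128546981, plus strand) was -0.21 (standard error 0.090, interval -0.41 to -0.010, edgeR adjusted p = 0.067), -0.28 without control replicate 4 (edgeR adjusted p = 0.010), and 0.46 and called higher with library totals alone. Hsf1 showed the smallest difference of the 10, at 65.1, 56.8, 62.4 and 54.8 CPM in control muscle and 57.7, 65.9, 62.5 and 56.1 CPM in knockout muscle. The groups lay over each other, with a log2 fold change (Entrez Gene 15499, chr15:76477445-76500972, plus strand) of 0.018 (standard error 0.080, interval -0.16 to 0.20, edgeR adjusted p = 0.86), which was -0.027 with RLE size factors and 0.69 with library totals alone, and -0.047 relative to the median of all genes. HSF1 is switched on by phosphorylation and trimer formation, which an mRNA level does not measure. None of the 75-base stretches of Bag3 or Hsf1 occurs in another gene.

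**Figure D2:**
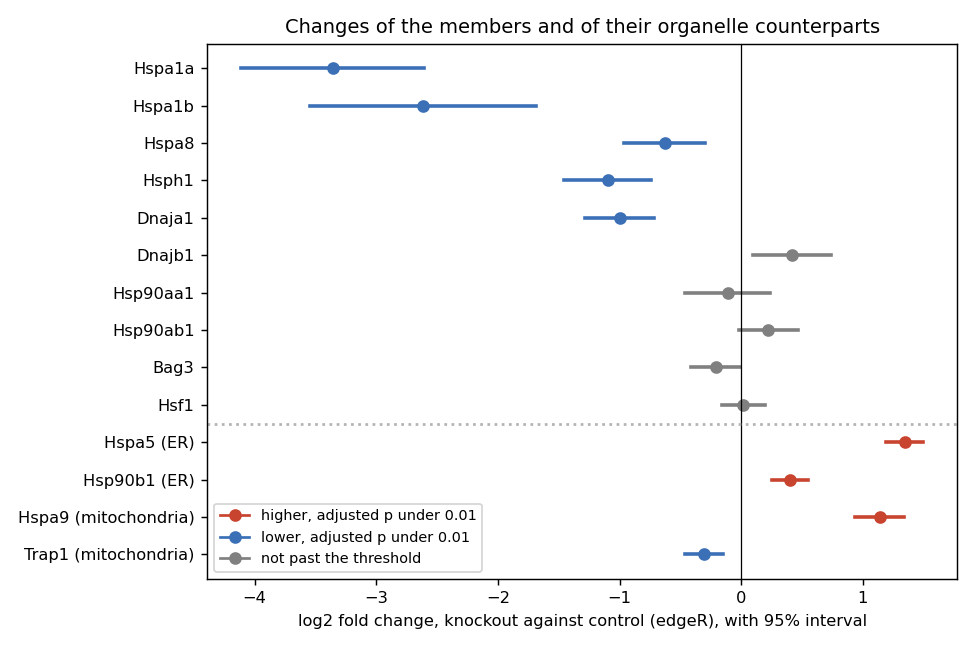
Log2 fold change, knockout against control (edgeR on TMM-scaled counts, n = 4 each), with its 95% interval, of the 10 members and, below the dotted line, of their counterparts in the endoplasmic reticulum (ER) and the mitochondrial matrix. Blue and red mark genes lower or higher at an adjusted p under 0.01 and grey the others. Hspa1a at -3.36 and Hspa5 at 1.34 are the outermost values, and with library totals alone every value lies further to the right, where Hspa8, Hsp90aa1, Bag3 and Trap1 are above 0.

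Control replicate 4 stood apart from the other controls in this gene group. It was the lowest control in 9 of the 10 members, Dnajb1 being the exception, whereas it was the lowest control in 31.7% of all genes. The median of its log2 difference to the mean of the other controls was -0.60 over the members and -0.026 over all genes. It was also the lowest control in 22 of 27 HSP90 co-chaperones and 14 of 14 subunits of the TRiC chaperonin and prefoldin, in 6 of 8 matrix chaperones and in 5 of 14 ER chaperones. Without it 5 members were called lower, 0 higher, as with it. Its adipocyte markers summed to 1477 CPM against 253 to 1506 in the other controls, and its immediate early genes, which rise within minutes of handling, to 670 CPM against 503 to 631. The part of these in its chaperone levels was not tested.

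Ratios between members were then taken within each library, since these do not depend on the scaling between libraries. A ratio compares groups only, because the counts are not divided by gene length. Of 10 pairs, 8 differed between the groups at an adjusted p of 0.0357 (exact permutation test of 4 against 4, p = 0.0286 each, Benjamini-Hochberg over the 10 pairs), and in these 8 the groups did not overlap. The pairs were chosen with earlier results of these data known, and the share over other gene pairs was not taken. Among single genes the groups did not overlap in 53.4%, so the number of differing pairs is not read as particular to chaperones. The inducible to constitutive HSP70 ratio, the log2 of the counts of Hspa1a plus Hspa1b over those of Hspa8, was -4.67, -4.66, -4.63 and -5.32 in control muscle and -7.79, -6.64, -7.81 and -6.85 in knockout muscle. The mean difference was -2.45 (exact 97.1% interval -3.18 to -1.33), or 5.48-fold lower, so the inducible genes fell more than the constitutive one. Within the inducible pair the log2 ratio of Hspa1b to Hspa1a was 0.69 higher in knockout muscle (interval 0.28 to 1.18), with the uncertain split of their reads as a limit. The J-domain ratio Dnajb1 to Dnaja1 was -3.25, -3.03, -3.12 and -2.79 in control muscle and -1.76, -1.44, -1.75 and -1.66 in knockout muscle. This is a difference of 1.40 (interval 1.03 to 1.81), or 2.63-fold, and every knockout lay above every control.

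The exchange factors moved apart relative to Hspa8. The log2 ratio of Hsph1 to Hspa8 differed by -0.46 (exact 97.1% interval -0.85 to -0.16), and that of Bag3 to Hspa8 by 0.40 (interval 0.069 to 0.63), so that Hsph1 fell and Bag3 rose relative to Hspa8. The ratio of Hsp90aa1 to Hsp90ab1, the inducible to the constitutive HSP90, was -3.98, -3.68, -3.80 and -4.28 in control muscle and -4.23, -4.25, -4.39 and -4.11 in knockout muscle. These overlapped through control replicate 4, and the difference of -0.31 did not pass (interval -0.71 to 0.17, exact permutation p = 0.114, adjusted p = 0.127). Each of the 10 differences kept its sign whichever library was left out.

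**Figure D3:**
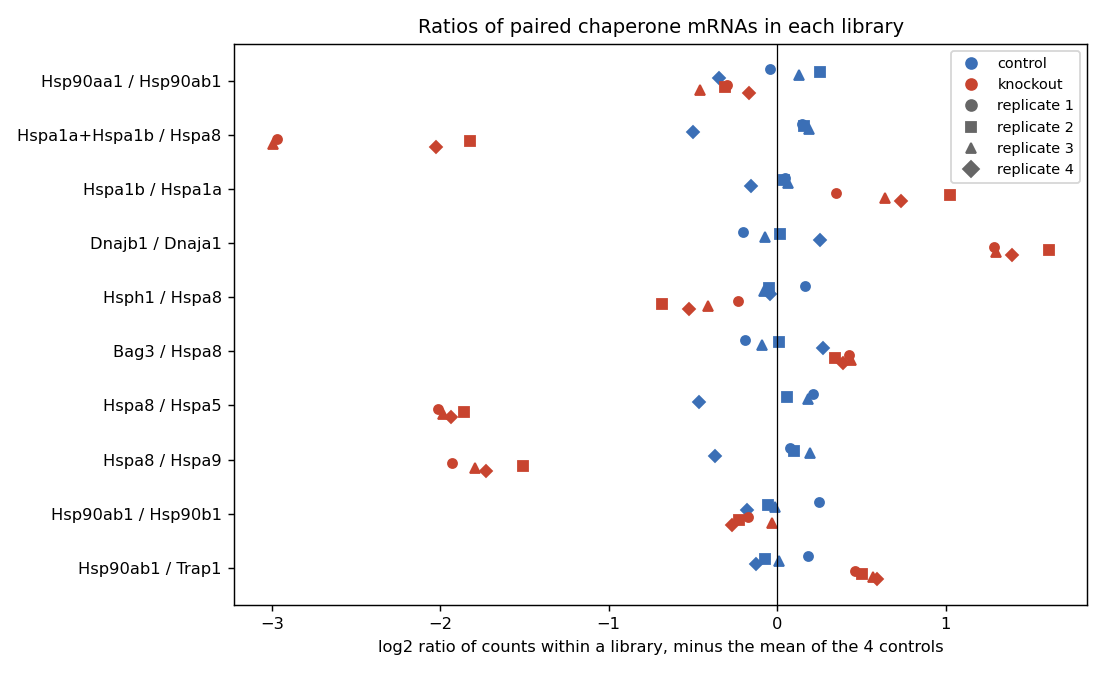
Log2 ratio of the counts of 10 gene pairs within each library, shown minus the mean of the 4 controls, with controls in blue, knockouts in red and a marker shape for each replicate number. The knockouts lie apart from the controls in 8 pairs and overlap them for Hsp90aa1 to Hsp90ab1 and Hsp90ab1 to Hsp90b1.

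The counterparts of the members in other compartments were set beside them. Hspa5 (BiP), the HSP70 of the ER, was at 222 ± 8.81 CPM in control muscle and 562 ± 23 in knockout muscle (SD, n = 4 each), which is 1.34 on the log2 scale (edgeR adjusted p = 3.5e-07), and Hspa9, the mitochondrial HSP70 that GRPEL1 serves, changed by 1.14 (edgeR adjusted p = 4.0e-06). The log2 ratio of Hspa8 to Hspa5 was 2.79, 2.64, 2.76 and 2.11 in control muscle and 0.56, 0.71, 0.59 and 0.64 in knockout muscle, a difference of -1.95 (exact 97.1% interval -2.23 to -1.40), or 3.86-fold lower. That of Hspa8 to Hspa9 differed by -1.74 (interval -2.12 to -1.14), or 3.34-fold lower. Among the HSP90 genes, Hsp90b1 (GRP94) of the ER rose by 0.40 (edgeR adjusted p = 5.1e-04) and Trap1 of the mitochondria changed by -0.30 (edgeR adjusted p = 0.0041), which was 0.37 with library totals alone. Trap1 did not pass when control replicate 2 or 3, or knockout replicate 4, was left out (-0.30 to -0.28, edgeR adjusted p of 0.013 to 0.014). Hsp90ab1 differed by -0.17 relative to Hsp90b1 (interval -0.52 to 0.15, exact permutation p = 0.143, adjusted p = 0.143) and was 0.53 higher relative to Trap1 (interval 0.28 to 0.72). The HSP70 genes of the 3 compartments thus changed unequally, Hspa8 falling relative to both others.

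Per length, in the FPKM values, Hspa8 made up 67.5% ± 3.72 of the summed FPKM of Hspa8, Hspa1a, Hspa1b, Hspa5 and Hspa9 in control muscle and 38.8% ± 2.26 in knockout muscle (SD, n = 4 each). Hspa9 held 21.4% ± 2.63 in control muscle and 40.9% ± 2.61 in knockout muscle, and Hspa5 held 9.20% ± 1.59 and 20.1% ± 0.297. Hspa1a and Hspa1b together were a small part in both groups, at 1.17% ± 0.267 and 0.670% ± 0.186 in control muscle and at 0.104% ± 0.0403 and 0.10% ± 0.0549 in knockout muscle. The sum of the 5 genes was 1025, 1004, 1049 and 721 FPKM in control muscle and 1004, 1004, 1120 and 1055 in knockout muscle, with control replicate 4 lowest and knockout replicate 3 highest. Among the HSP90 genes Hsp90ab1 held 80.1% ± 1.33 of the summed FPKM in control muscle and 82.1% ± 0.758 in knockout muscle, Hsp90aa1 4.65% ± 0.779 and 3.82% ± 0.278. These shares carry any loss of read pairs of Hspa8, Hsp90aa1 and the inducible pair. Of the 75-base stretches of Hsp90aa1, 53.1% occur in other genes.

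**Figure D4:**
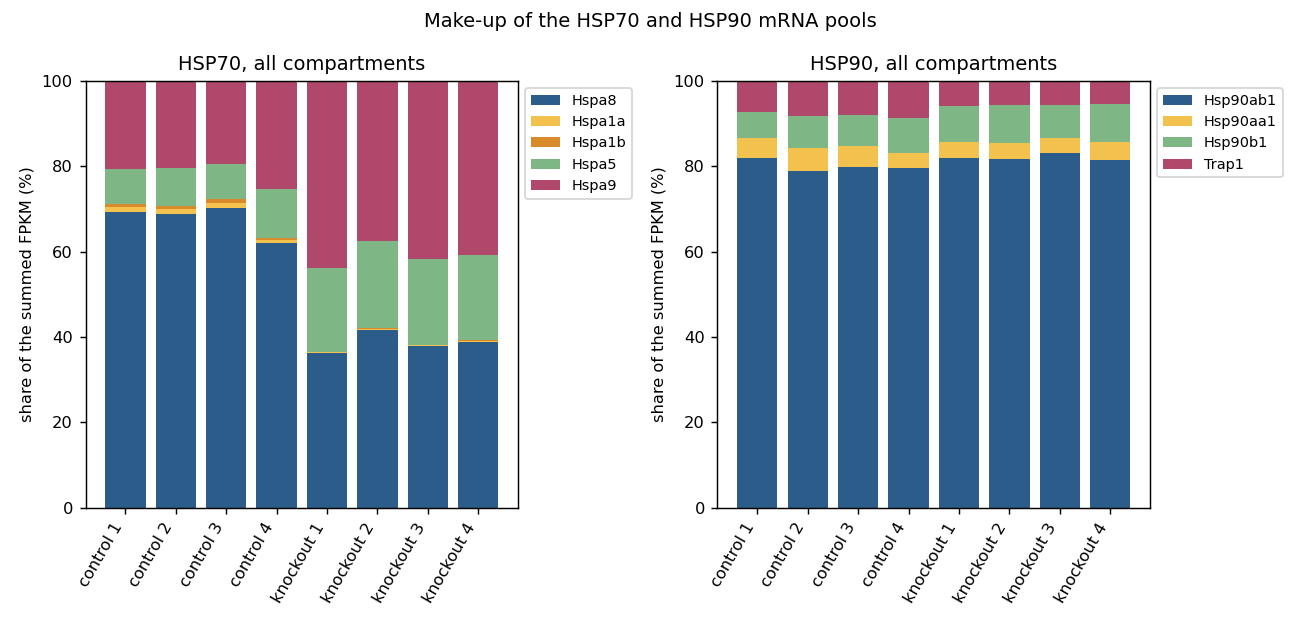
Share of each gene (%) in the summed FPKM of 5 HSP70 genes (left) and 4 HSP90 genes (right) in each of the 8 libraries, as stacked bars that start at 0. Hspa8 makes up 62.0% to 70.2% of the HSP70 sum in control muscle and 36.3% to 41.7% in knockout muscle, while Hsp90ab1 lies between 78.9% and 83.2% of the HSP90 sum in all libraries.

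The order of the members by mean FPKM in control muscle was Hsp90ab1 (754), Hspa8 (646), Bag3 (72.0), Hsph1 (66.4), Hsp90aa1 (44.2), Hsf1 (29.9), Dnaja1 (18.4), Hspa1a (11.5), Hspa1b (6.58) and Dnajb1 (2.46). Neighbours in this order overlapped between libraries except Hspa8 and Bag3, Hsf1 and Dnaja1, and Hspa1b and Dnajb1. In the knockouts the order was Hsp90ab1 (855), Hspa8 (405), Bag3 (60.4), Hsp90aa1 (39.7), Hsph1 (30.1), Hsf1 (29.4), Dnaja1 (8.89), Dnajb1 (3.18), Hspa1a (1.08) and Hspa1b (1.04). There only Hsph1 and Hsf1, and Hspa1a and Hspa1b, overlapped. By FPKM, Dnajb1 thus stood below both inducible HSP70 genes in every control, and above both in every knockout. The order carries the loss of reads that mapped to several places. Stretches of read length that occur in other genes make up 68.6% of Hspa8, 61.7% of Hspa1a and 55.8% of Hspa1b. They make up 53.1% of Hsp90aa1, 26.2% of Dnaja1 and 0.736% of Hsp90ab1, and none of Dnajb1, Hsph1, Bag3 or Hsf1. The order with such reads counted was not tested.

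Other genes of the same machinery gave a mixed picture. Of 7 other HSP70 and HSP110 genes of the cytosol, 3 were higher and 2 lower (median log2 fold change 0.19). Higher were Hspa2 (1.58), Hspa14 (0.73), the HSP70 that sits on ribosomes, and Hspa4 (0.41), an HSP110 relative of Hsph1. Lower were Hspa12b (-0.93) and Hspa1l (-0.80), which lies beside Hspa1a, and neither passed with library totals alone (-0.27 and -0.14), where 5 of the 7 were higher. Of 21 other J-domain genes, 6 were higher and 4 lower (median 0.17), among them Dnajc8 (0.73), Dnajc2 (0.63), the ribosome-bound partner of HSPA14, and Dnajc5 (0.41) on one side, and Dnajb5 (-1.25), Dnajc27 (-1.11) and Dnajc21 (-0.65, and 0.018 with library totals alone) on the other. Of the 21, library totals alone gave 17 higher and 2 lower (median 0.84), where 60.6% and 6.23% of all genes were called, in place of 23.6% and 21.1%. Of 6 other exchange factors and BAG genes, Bag4 (0.45) and Bag6 (0.28) were higher and none was lower (median 0.030), but without control replicate 4 these counts were 0 and 1, and with RLE size factors neither gene passed. Bag4 did not pass either when control replicate 2 or 3, or knockout replicate 1, 2 or 4, was left out (0.38 to 0.44), nor Bag6 without control replicate 1 or 2 or any single knockout (0.21 to 0.29). No list here was tested against other genes.

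The HSP90 co-chaperones, which load and release HSP90 clients, held more lower than higher genes with TMM scaling and more higher ones with library totals alone. Of 27, 11 were lower and 3 higher, 40.7% and 11.1% of the list against 21.1% and 23.6% of all genes, with a median of -0.17. Library totals alone gave 2 lower and 15 higher, with a median of 0.49, where 6.23% of all genes were lower and 60.6% higher and their median was 0.73. Unc45b (-1.14) and Smyd1 (-0.99), a chaperone and a methyltransferase needed to assemble myosin in muscle, and Ahsa2 (-0.94), an activator of the HSP90 ATPase, were lowest, and Ahsa2 did not pass with library totals alone (-0.27). Nudcd2 (0.66), Tomm34 (0.41), which binds HSP70 and HSP90 on the way to mitochondria, and Ptges3 (0.38), the p23 co-chaperone, were higher. Without control replicate 4 the counts were 11 lower and 1 higher. Tomm34 did not pass when control replicate 1, 2 or 4, or knockout replicate 1 or 4, was left out (0.33 to 0.41), nor Ptges3 without any single control or knockout replicate 1, 3 or 4 (0.30 to 0.42). Muscle fibre markers moved with these, as given below, and their part was not tested.

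Of 14 subunits of TRiC, the ring that folds actin and tubulin, and of prefoldin, which delivers them, 6 were higher and 2 lower (median 0.35), with Cct2 (0.67), Cct3 (0.59) and Cct4 (0.52) against Pfdn1 (-0.49) and Vbp1 (-0.44), which were 0.18 and 0.24 with library totals alone. Of 7 small heat shock proteins, which hold unfolded proteins without ATP, 3 were higher, Hspb7 (2.79), Hspb6 (1.06) and Hspb1 (0.56), none was lower, and the median was 0.33. Hspb1 did not pass when control replicate 1 or 2, or knockout replicate 2, 3 or 4, was left out (0.48 to 0.58, edgeR adjusted p of 0.014 to 0.025). Of 9 partners of BAG3 in chaperone-assisted selective autophagy, 3 were higher and 4 lower (median -0.098, and 0.57 with library totals alone). Flnc (1.56), the filamin that BAG3 clears, Sqstm1 (1.03), the receptor that carries cargo to autophagosomes, and Vps16 (0.62) were higher. Synpo2 (-1.28), which tethers the autophagosome membrane, Tsc1 (-0.58) and Yap1 (-0.44) were lower, the last 2 of which were 0.089 and 0.23 with library totals alone. Of all genes 23.6% were higher and 21.1% lower. Library totals alone gave 12 TRiC and prefoldin subunits, 7 small heat shock proteins and 6 BAG3 partners higher. In these lists 0, 0 and 1 genes were then lower, where 60.6% of all genes were called higher and 6.23% lower.

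Among 10 other heat shock factors and regulators of HSF1, 5 were higher and 2 lower (median 0.39). Eef1a1 (2.94), a translation elongation factor that takes part in HSF1 activation, Hsf2 (0.93), which forms mixed trimers with HSF1, and Sirt1 (0.64), a deacetylase that prolongs HSF1 binding, were higher, and Ep300 (-0.74), an acetyltransferase of HSF1, was lower. On library totals alone, 8 of the 10 were higher, and neither Ep300 (-0.076) nor Hsbp1l1 (-0.88) passed. The others called, Hsf4 (0.56), Hsf2bp (2.70) and Hsbp1l1 (-1.54), are named after their values were seen, and Hsf4 did not pass without control replicate 4 or any single knockout (0.52 to 0.58), nor Hsbp1l1 without control replicate 2 (-1.38). Hsf2bp had 1, 2, 3 and 3 counts in control replicates 1 to 4, within the limit of a count of 0, and 19 to 35 in knockout muscle. Hsbp1l1 had 14 to 38 counts in control muscle and 11 to 20 in knockout muscle, so both changes rest on few counts. Of 24 other textbook targets of HSF1, 7 were higher and 7 lower, 29.2% each against 23.6% and 21.1% of all genes, with a median of 0.21. On library totals alone, 16 were higher and none passed as lower, with a median of 0.88. Hsf2 (0.93), Zfand2a (0.74) and Hspe1 (0.70) were highest, and Mrpl18 (-0.91) and Fkbp4 (-0.74) were among the lower ones, neither of which passed with library totals alone (-0.24 and -0.060). Among these targets too, control replicate 4 was the lowest control, in 17 of 24.

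Of 14 ER lumen chaperones 10 were higher and 0 lower, with a median of 0.48, led by Sdf2l1 (1.38), Hspa5 (1.34) and Canx (1.30), the lectin calnexin. These counts are 71.4% and 0% of the list, against 23.6% and 21.1% of all genes. The same number, 10, passed in the higher direction also without control replicate 4. Of 8 matrix chaperones 4 were higher and 2 lower (median 0.43), Hspa9, Hspe1 and Dnaja3 (0.53) on one side and Clpx (-0.39) and Trap1 (-0.30) on the other, the last 2 of which were 0.28 and 0.37 with library totals alone. Clpx did not pass without control replicate 2 (-0.38). With library totals alone 14 of 14 ER and 8 of 8 matrix chaperones were higher, where 60.6% of all genes were.

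**Figure D5:**
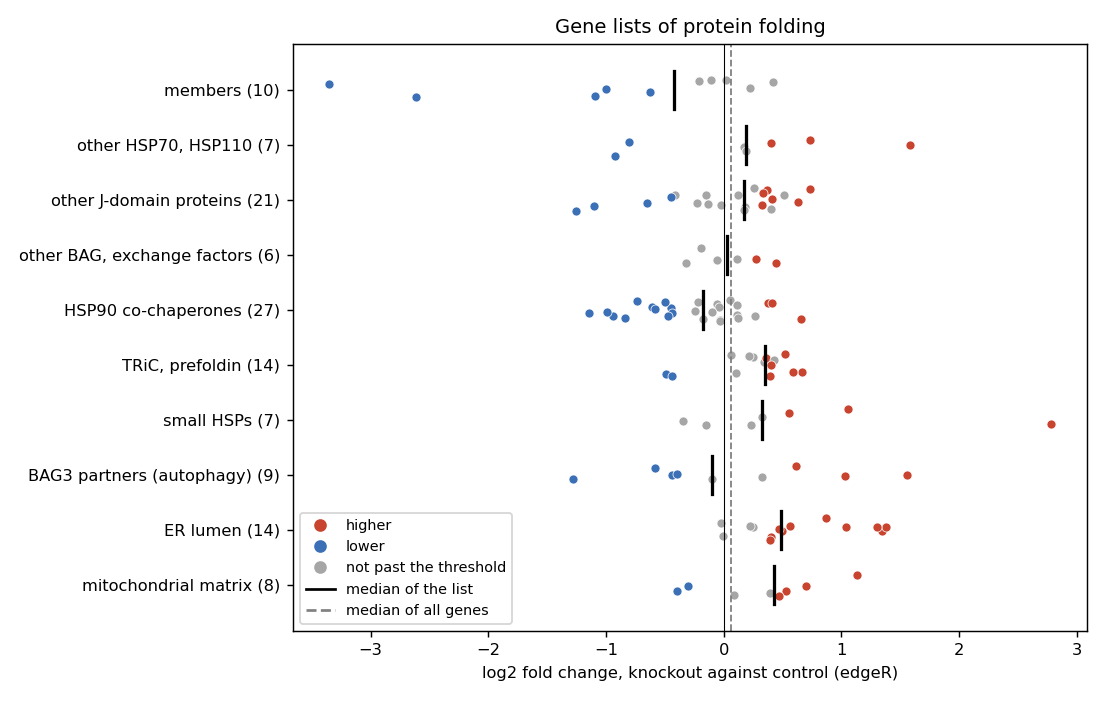
Log2 fold change, knockout against control (edgeR, TMM-scaled), of each gene in 10 lists of protein folding genes, with the number of genes in parentheses, black bars for list medians and a dashed line for the median of all genes (0.065). Red and blue mark genes higher or lower at an adjusted p under 0.01. The members have the lowest median (-0.42) and the ER lumen list the highest (0.48), and with library totals alone all medians shown move to the right together with that of all genes (0.73).

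Markers of other cells, and of the fibre itself, differed between the same libraries. Of 12 muscle fibre markers 9 were lower, with Myh4 (-2.34), Actn3 (-2.33) and Ckm (-1.75) lowest, and Myh1 (1.15) was higher. In all 3 of the 12 changes were above 0, and the largest, 3.93, was that of a marker that did not pass. Of 7 satellite cell and regenerating muscle markers 5 were higher, among them Myh3 (6.92), Myh8 (6.72) and Myog (3.96), and their summed CPM was 37.5 to 53.4 in control muscle and 855 to 1745 in knockout muscle. Of 8 fibroblast markers 5 were lower (1723 to 2580 against 683 to 1048 CPM), Col1a1 (-1.92), Col1a2 (-1.61) and Col3a1 (-1.38) among them, and of 8 endothelial markers 7 were lower (334 to 477 against 234 to 268 CPM), with Cdh5 (-0.82), Kdr (-0.81) and Vwf (-0.81) lowest. On library totals alone, 1 fibroblast marker and no endothelial marker passed as lower, and Col1a2 (-0.93), Col3a1 (-0.71), Cdh5 (-0.16), Kdr (-0.14) and Vwf (-0.14) did not pass. Of 8 macrophage markers only Cd68 (2.62) passed, though 7 of the 8 changes were above 0, with sums of 67.3 to 166 and 130 to 234 CPM. None of 8 adipocyte markers (253 to 1506 and 721 to 2621 CPM) and none of 7 Schwann cell markers (71.5 to 181 and 93.5 to 146 CPM) passed the edgeR test. With library totals alone 6 macrophage, 1 adipocyte and 2 Schwann cell markers passed as higher, where 60.6% of all genes did. No marker in these lists was at 0 in all libraries, and their part in the levels of the members was not tested. Of 15 immediate early genes 6 were higher and 3 lower, Btg2 (1.92), Egr1 (1.92) and Atf3 (1.74) against Nr4a1 (-1.86), Dusp1 (-1.42) and Jun (-0.57, and 0.10 with library totals alone), and their summed CPM was 503 to 670 in control muscle and 438 to 504 in knockout muscle.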

How the data were processed

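Polyadenylated RNA of QF muscle from 4 knockout and 4 control mice was sequenced, with a library for each. The authors trimmed reads of 75 bases, mapped them to GRCm38 with STAR 2.5.4b, left out duplicate, chimeric, multimapping and poorly mapped read pairs (mapping quality under 10) and deposited raw counts per gene, made with Rsubread on exons, for genes with at least 50 reads over all libraries; the lowest total in the table was 51. Per the labels, bcl2fastq 2.20.0.422, cutadapt and DESeq2 1.32.0 were also used. The annotation release and the use of strand in counting are not given in the sources used here. The deposited FPKM rest on those counts, the summed exon width and library sizes like those of DESeq2, and served here for levels between genes and shares. The authors' DESeq2 columns (mean normalized count, log2 fold change with its error, p-values) hold their own comparison and were not used.

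All 14012 genes were tested on the raw counts with edgeR 4.0.16 (limma 3.58.1, R 4.3.3), TMM factors, glmQLFit and glmQLFTest with no term but the group, and adjusted by Benjamini-Hochberg, called at an adjusted p under 0.01. Replicates are animals by their labels, and no 2 libraries agreed within sampling noise (chi-square over degrees of freedom 18.1 to 43.6 within groups). Ratios of counts within a library were compared over the 70 assignments of 4 against 4 by a two-sided exact permutation test, called at an adjusted p under 0.05; their exact interval is the range of shifts that this test does not refuse. Intervals and the limit of 3 counts for a count of 0 cover no error but that between these samples and of counting. On simulated counts (13251 genes, knockout against control) edgeR recovered 87% of 100 genes changed by 1 and 98% of 100 changed by 2 (log2). The changed genes were drawn only from those with higher counts, as many raised as lowered. Of 13051 unchanged genes, 7 were called. Most genes were thus unchanged there, whereas 44.7% of all genes were called in these libraries. The error rate with that many changed genes was not tested, nor was recovery at low counts or with the composition difference between these groups.

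Named are all 10 members, Grpel1, the genes of the 10 ratio pairs and, from each of 19 lists of textbook membership, up to 3 genes with the largest and 3 with the smallest log2 fold change among those called, where the group with more counts averaged 50 or above. A gene of the HSF1 target list that this rule names is not reported here. The members, lists and pairs were chosen with earlier results of these data known. Alternatives covered scaling (RLE, upper quartile, library totals, the 20 most abundant genes left out), filterByExpr, DESeq2 1.42.0, another threshold, a block for replicate number, leaving out each library, and for ratios added counts and FPKM. Promoter windows came from RefSeq and shared 75-base stretches from GENCODE M21 transcripts.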

Additional observations from a re-analysis of the deposited data

Results flagged for a closer look

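In 40 groups of 4 libraries, the CPM of the 10 members and the 10 ratios in each group, the highest or lowest library was checked for a gap to its neighbour that was large beside the whole range (Dixon's test at 95%), which chance gives in about 1 group in 20. There were 6 such gaps, and 5 of them were control replicate 4. Control replicate 4 stood below the other controls in Hspa1a (15.5 CPM against 35.9 to 39.1), Hspa1b (7.88 CPM against 20.9 to 23.1) and Hsp90aa1 (82.0 CPM against 134 to 142). It was also lowest in the log2 ratio of Hspa1a plus Hspa1b to Hspa8 (-5.32 against -4.67 to -4.63) and in that of Hspa1b to Hspa1a (-0.98 against -0.78 to -0.76). These 5 are not independent of each other, since they share genes and a library. In the log2 ratio of Hsph1 to Hspa8, control replicate 1 stood above the others, at -2.40 against -2.64 to -2.60.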

How the results depend on the processing

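Of the choices tried, the scaling moved the results most. With library totals alone 8498 genes were called higher and 873 lower, 5 members higher and 2 lower, Hspa8 (0.051), Hsp90aa1 (0.57) and Bag3 (0.46) changed sign, Hsf1 (0.69), Hsp90ab1 (0.90) and Dnajb1 (1.096) passed the threshold, and Dnaja1 (-0.32) and Hsph1 (-0.42) did not. Clpx (0.28), Dnajc21 (0.018), Grpel1 (0.61), Jun (0.10), Pfdn1 (0.18), Trap1 (0.37), Tsc1 (0.089), Vbp1 (0.24) and Yap1 (0.23) changed sign as well, and Ahsa2, Cdh5, Col1a2, Col3a1, Ep300, Fkbp4, Hsbp1l1, Hspa12b, Hspa1l, Kdr, Mrpl18 and Vwf did not pass. The changes of the members relative to the median of all genes moved by little, which follows from how they are computed and is no check on the scaling. With RLE factors Bag4, Bag6, Hspb1 and Ptges3 did not pass, nor did Bag4, Bag6 and Ptges3 without the 20 most abundant genes in the scaling, nor Ptges3 with DESeq2. Hsf1, near 0, was also below 0 with RLE factors (-0.027), without the 20 most abundant genes in the scaling (-0.0015) and with DESeq2 (-0.026). At an adjusted p under 0.05, 1 member was called higher, Dnajb1 (0.42).

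With each library left out in turn, 4 to 5 members were called lower and 0 higher, with 2596 to 3005 genes higher and 2600 to 2937 lower in all. The ranges were -3.59 to -3.22 for Hspa1a, -2.95 to -2.41 for Hspa1b, -0.77 to -0.56 for Hspa8, -1.25 to -0.99 for Hsph1, -1.11 to -0.92 for Dnaja1, 0.31 to 0.48 for Dnajb1, -0.27 to -0.039 for Hsp90aa1, 0.15 to 0.29 for Hsp90ab1, -0.28 to -0.17 for Bag3 and -0.037 to 0.061 for Hsf1, whose sign is not fixed. Hspa1a and Hspa1b were called lower under every alternative. The 10 ratios kept their sign and their side of the threshold with 0.5 or 10 counts added. They did so with FPKM too, but for ratios of single genes this holds by construction. FPKM divides the counts by a fixed gene length and library size, so the difference between the groups cannot change. With a library left out, 3 against 4 cannot give a p below 0.0571, so those ratios were taken as values.

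Replicate numbers were not taken to pair the samples, since 1 of 4 same-numbered pairs correlated at under 0.1. The correlations of the deviations of same-numbered samples over genes were 0.12, 0.0031, 0.42 and 0.14, and the samples numbered 1, 3 and 4, but not those numbered 2, correlated best with their own number, which is a hint from the data and not from the design. With a replicate block 5 members were called lower and 0 higher, Hspa8 at -0.61, with 3215 genes higher and 2908 lower in all, and Tomm34 and Ptges3 did not pass (edgeR adjusted p of 0.011 and 0.018). The cause of these shifts was not tested. At n = 4 the interval printed with each member sets the size of change that could be missed, and reads shared with other genes limit the levels of Hspa1a, Hspa1b, Hspa8 and Hsp90aa1.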
